A study of Zea mays with 6 samples.

Results

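The regions described here are 990 places in the interiors of the maize chromosomes where KNOTTED1 (KN1) was called on chromatin in both the tassel and the ear, each standing alone. They were chosen from the deposited peak lists, in which a peak is an interval with more ChIP fragments than its background. Overlapping peaks of the 3 lists were merged, which gave 44066 regions. On chromosomes 1 to 10, 3345 of these held a peak of tassel replicate 2 and a peak of the ear. A region was kept when it held no peak of tassel replicate 1, when no other such shared region lay within 10 kb, and when its midpoint lay between 20% and 80% of the chromosome's length. The 990 regions were 2.25% of all merged regions and 29.6% of the shared ones, and they covered 883 kb. In 808 of them the ear peak carried a false discovery rate of 100%, a limit described further below.

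KN1 is the founding member of the KNOX class of homeodomain proteins. It is present in shoot meristems, where it keeps cells from differentiating, and it acts on DNA together with partner proteins of the BELL class. Genes of hormone pathways, among them the gibberellin-degrading enzyme gene ga2ox1, are known targets of KN1 in maize. Maize chromosomes carry most of their genes towards the ends, while the middle is rich in retrotransposons and poor in recombination. Whether the regions described here lie among fewer genes was not examined. No genome build is given for the coordinates in the sources used here. Genes and sequences at the regions were therefore not analysed here, and positions are printed as the lists give them.

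The material was tassel primordia, the young male inflorescence, and ear primordia, the young female inflorescence, of the inbred B73 grown in the field. An antibody against KN1 was used on 2 tassel samples and 1 ear sample, and each had its own total input DNA as control. Tassel replicate 2 is the sample whose title names tassels 2 and 3. All tissue was fixed for 10 minutes in 1% formaldehyde. Tassel chromatin was sheared to about 400 bp and carried barcoded adapters, whereas ear chromatin was sheared to about 100 bp and ear libraries, amplified for 18 PCR cycles, were cut from a gel between 150 and 350 bp, so tissue and library preparation cannot be told apart. The lists held 165023 tags in 14918 peaks for tassel replicate 2, 226165 tags in 24737 peaks for the ear and 87317 tags in 8876 peaks for tassel replicate 1. A tag is a sequenced ChIP fragment, and its number is not compared between lists because the depth of the libraries is unknown. With 1 list for each side of the choice, no test across samples could be made. The 95% Wilson intervals given with shares cover counting error over regions only, and neighbouring regions are not independent.

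Most of these regions held few KN1 ChIP tags, and a small group held many. In tassel replicate 2 the regions held from 4 to 122 tags with a median of 10, and the quartiles were 7 and 16. In the ear they held from 4 to 123 tags with a median of 14 and quartiles of 8 and 26. The regions made up 6.64% of the tassel replicate 2 peaks and 7.65% of the tags in that list, and 4.002% of the ear peaks with 8.80% of the ear tags. More than 20 tags were present in 131 regions in tassel replicate 2 (13.2%, interval 11.3 to 15.5) and in 335 regions in the ear (33.8%, 31.0 to 36.8). Over all peaks on the numbered chromosomes these shares were 7.37% and 8.45%. Both peaks exceeded 20 tags in 83 regions (8.38%, 6.81 to 10.3). At the other end, both peaks held only 4 or 5 tags in 27 regions (2.73%, 1.88 to 3.94). Since a peak in both lists was the condition for entry, these levels describe the regions and are no evidence for them.

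**Figure D1:**
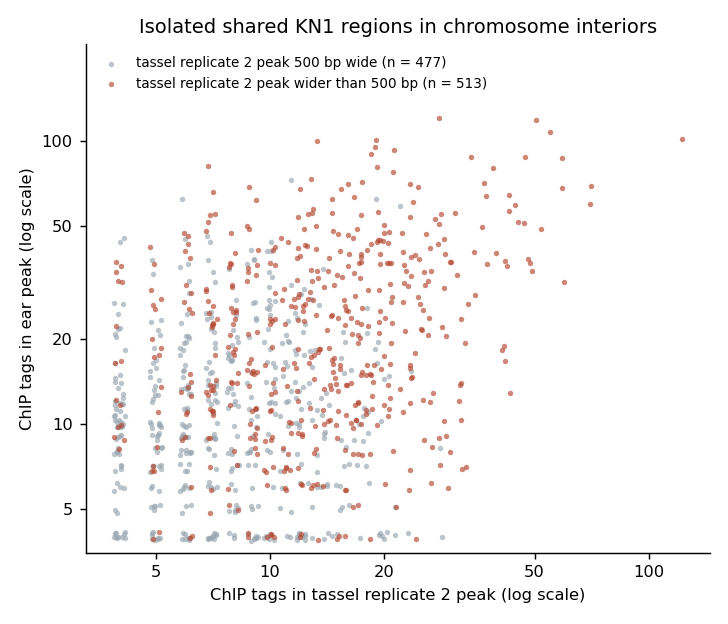
ChIP tags in the tassel replicate 2 peak (horizontal, log scale) against ChIP tags in the ear peak (vertical, log scale) for the 990 regions, 1 point each, moved slightly at random to separate equal counts. The 513 regions with a tassel peak wider than 500 bp lie further up and to the right than the 477 with a peak of 500 bp, and the point with the most tassel tags holds 122 tags there and 104 in the ear.

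Strength in the tassel and strength in the ear were only loosely related across the regions. Over the 990 regions the rank correlation of tassel and ear tags was 0.29, that of the fold enrichment over local background was 0.12, and that of the peak score was 0.11. The score is -10 × log10 of the peak caller's p-value. These correlations are descriptions, because all points come from the same 2 lists and every region had to pass the calling threshold in both. Peak width separated the regions more clearly. In 513 of 990 regions (51.8%, 48.7 to 54.9) the tassel peak was wider than 500 bp, the smallest width in that list, against 19.8% of all tassel replicate 2 peaks on the numbered chromosomes. A wider peak overlaps an ear peak more easily, so this excess is at least partly set by the choice. The wide regions held a median of 14 tassel tags and 21 ear tags. The 477 regions at exactly 500 bp held 7 and 10. Tags are counted per peak, so within a list width and tags are not separate measures. In the ear their rank correlation was 0.77. The median fold enrichment in the tassel was 112 in both groups, and in the ear it was 33.5 in the wide group and 24.1 in the other. Fold also depends on the local background, which the lists do not give.

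Summits of both tissues lay close together where the peaks were strong. The tassel and ear summits were a median of 148 bp apart (quartiles 64 and 248), with 378 regions (38.2%, 35.2 to 41.2) within 100 bp and 54 (5.45%, 4.20 to 7.05) over 500 bp apart. The median was 104 bp in regions with a wide tassel peak (quartiles 45 and 217) and 184 bp in the others (92 and 265), in which the tassel summit sits at the centre of a peak of fixed width. It was 85 bp where the tassel peak held 21 tags or more and 160 bp where it held 4 to 6. Overlap itself limits these distances, and no random level was computed for them. The ear peak lay wholly inside the tassel peak in 252 regions, the tassel peak inside the ear peak in 112, and the peaks overlapped in part in 626. Nearly all regions were simple pairs, as 2 held a second tassel peak and 25 a second ear peak.

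The false discovery rate (FDR) column of the lists, read as the share of peaks at a score that input would give, split the regions unevenly by tissue. In tassel replicate 2 an FDR of at most 5% was carried by 938 regions (94.7%, 93.2 to 96.0), close to the 95.6% of all peaks of that list. In the ear 808 regions (81.6%, 79.1 to 83.9) carried an FDR of 100%, which read as MACS's FDR means that input would give as many peaks at that score. Across the whole ear list nearly all peaks carry this value. Whether ChIP and input held the right roles when ear peaks were called was not checked, and every ear FDR given here has this limit. The other 182 regions (18.4%, 16.1 to 20.9) were below 100%, against 3.85% of all ear peaks. The choice used these lists, so nothing is read from that difference. Applying the same rule with only ear peaks below 100%, a limit chosen after the data were seen, left 208 regions, and a score of at least 100 in every list left 547. Every one of the 182 held at least 21 ear tags and scored at least 300.06, and 84.1% of them had a wide tassel peak. The 808 at 100% scored at most 296.84, so a limit on FDR amounts here to a limit on score. High scores and tag counts below it are therefore partly set by that limit. An ear FDR of at most 20% was reached by 25 regions, against 0.568% of all ear peaks. Those 25 held a median of 84 ear tags (47 to 123) and 24 tassel tags (7 to 122), all 25 had a wide tassel peak, and their summits lay a median of 60 bp apart.

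The strongest isolated interior region lay on chromosome 1 from 182594993 to 182596149, at 60.6% of the chromosome's length. Its tassel peak held 122 tags at a 661-fold enrichment and ranked 26 in the list, and its ear peak held 104 tags at 137-fold and ranked 14. The nearest other shared region was 1.22 Mb away, and the nearest tassel replicate 1 peak was 32578 bp away. Ranks follow the score, and a region's place here is set by the worse of its 2 ranks. The second region, on chromosome 10 from 112871174 to 112872152, held 58 tassel tags at 1788-fold and 84 ear tags at 111-fold. The third, on chromosome 2 from 61029704 to 61031448, held 52 tassel tags and 120 ear tags. The fourth, on chromosome 5 from 127037453 to 127038475, had the highest tassel enrichment of all 990, 2096-fold with 68 tags, and held 58 ear tags. It stood 4.47 Mb from the next shared region. All of these had summits within 105 bp of each other and an ear FDR between 8.82% and 18.2%.

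Next in order was a region on chromosome 3 (159870467 to 159871512) with 59 tags in the tassel and 67 in the ear, and another, on chromosome 5 (44623368 to 44625797), held 72 and 71. A further region of chromosome 3 (144864968 to 144867315) held 55 tassel and 107 ear tags, and a further one of chromosome 10 (113149507 to 113150555) held 44 and 60. The last of the first 10 were on chromosome 4 (175265527 to 175266495), with 36 tassel and 49 ear tags, and on chromosome 1 (205762421 to 205763366), with 39 and 40. In all 10 the tassel FDR was at most 0.81%, while the ear FDR ranged from 7.14% to 47.4%. The 2 regions on chromosome 10 among them had their nearest shared neighbours 114675 and 158287 bp away.

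On the remaining chromosomes the best ranked region was weaker in at least 1 list. On chromosome 6 (88730290 to 88731266) it held 45 tassel and 51 ear tags with summits 9 bp apart. The one on chromosome 7 (45655359 to 45656315) held 34 and 41 tags with summits 6 bp apart, and the one on chromosome 9 (117318880 to 117320418) held 47 and 37 tags. On chromosome 8 (95823814 to 95824910) the best region held 14 tassel tags in a peak of 500 bp and 35 ear tags, and ranked 1598 in the tassel and 796 in the ear. The other regions with a low ear FDR lay on chromosome 2 (61303291 to 61304773, 34 tassel and 90 ear tags), chromosome 9 (103649576 to 103651224, 48 and 86), chromosome 6 (116754286 to 116755155, 24 and 71) and chromosome 8 (118321692 to 118322774, 15 and 47), among the 10 such regions named by rank.

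Some regions stood high in 1 tissue and low in the other. The most uneven towards the tassel, on chromosome 10 from 78061909 to 78062573, ranked 62 in tassel replicate 2 with 31 tags at 694-fold, and 9179 in the ear with 10 tags at 20.6-fold. It was followed by chromosome 5 (143672744 to 143673423, ranks 156 and 18688), chromosome 9 (102106098 to 102106670, ranks 193 and 21507), chromosome 3 (179218697 to 179219386, ranks 80 and 7323) and chromosome 5 (100070445 to 100070944, ranks 140 and 10443). Their ear peaks held 7, 9, 12 and 4 tags, and all 5 ear peaks had an FDR of 100%. Towards the ear, the region on chromosome 1 from 89231759 to 89233184 ranked 26 in the ear with 95 tags at 120-fold, and 8814 in the tassel with 19 tags at 37.5-fold. Next were chromosome 2 (64298540 to 64299204, 69 ear and 15 tassel tags), chromosome 4 (178750362 to 178751962, 97 and 13), chromosome 7 (105058473 to 105059294, 87 and 19) and chromosome 1 (213611630 to 213612861, 94 and 22). All 5 of these ear peaks had an FDR of at most 11.1%. The unevenness is a description of single lists of unequal length, and a difference between tissues was not tested.

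The widest region spanned 3036 bp on chromosome 2 from 49512707 to 49515742, all of it within a single tassel peak of 27 tags, with an ear peak of 730 bp and 32 tags whose summit lay 1 bp from the tassel's. Besides 2 regions named above for their rank, at 2430 bp and 2348 bp, the widest were on chromosome 5 (57424569 to 57426944, 2376 bp, 11 tassel and 22 ear tags) and chromosome 3 (149682570 to 149684873, 2304 bp, 19 and 100 tags). In the last of these the ear peak was the wide one. Over all 990 the median region was 812 bp wide (quartiles 653 and 1032).

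Within the interior the regions were far from evenly spread. They thinned towards the middle of the chromosomes and thickened towards the higher coordinates. Per Mb of sequence there were 0.675 of them between 20% and 30% of the length, 0.360 between 40% and 50%, and 1.497 between 70% and 80%. The side from 50% upwards held 694 of the 990 (70.1%, 67.2 to 72.9), and it held more than the lower side on 9 chromosomes. The exception was chromosome 5, with 61 regions below the midpoint and 43 above. The skew was strongest on chromosome 9, with 50 of 59 above. The lean was not particular to isolated regions among the shared ones. In successive 10% bins from 20% to 80%, all 1299 shared regions of the interior numbered 185, 106, 86, 202, 300 and 420. The 990, which are 76.2% of them, numbered 139, 83, 74, 146, 240 and 308. Interior regions of a single list leaned the same way by less. Above the midpoint lay 55.4% (54.1 to 56.6) of those called in tassel replicate 2 alone and 56.6% (55.6 to 57.5) of those called in the ear alone. The midpoint does not stand for the centromere, whose position was not used. Unmappable sequence was not taken into account.

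**Figure D2:**
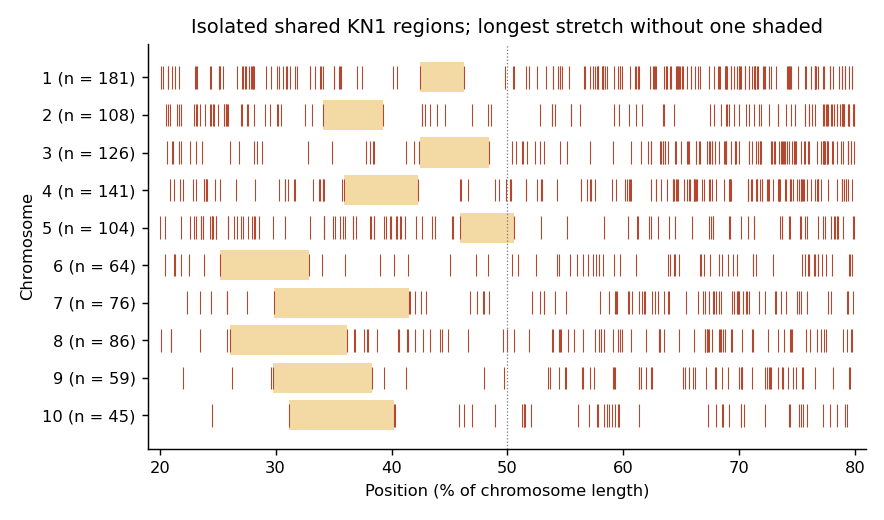
Position of each of the 990 regions (red ticks) along chromosomes 1 to 10, as a percentage of chromosome length from 20% to 80%, with the longest stretch without a region shaded. Ticks are dense above 60% on most chromosomes, and the longest empty stretch, 20.6 Mb, is on chromosome 7.

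Each chromosome had a long stretch with no isolated shared region, although peaks of single lists went on through it. The longest such stretch per chromosome ranged from 10.1 Mb on chromosome 5 to 20.6 Mb on chromosome 7, where it ran from 52704796 to 73314108 (29.8% to 41.5% of the length). On all chromosomes it began below the midpoint, and on 9 it also ended there. Together the 10 stretches spanned 142 Mb. They held 524 regions of tassel replicate 2 alone, 897 of the ear alone and 482 with a tassel replicate 1 peak. Only 8 regions were shared by tassel replicate 2 and the ear, all of them among those 482. Merged regions of any kind lay there at 13.4 per Mb, against 18.2 per Mb over the whole interior. The stretches were picked for their lack of isolated shared regions, so their low number of shared regions is partly set by that choice. Regions at their edges are far from the next isolated one on that side by the way the stretches were picked. They included the most isolated of all 990. The one on chromosome 1 from 139463609 to 139464485 stood 9.74 Mb from the next shared region, with 6 tassel and 13 ear tags. The one on chromosome 4 from 102183397 to 102184158 stood 8.60 Mb away, with 5 and 15 tags. The others of the 5 most isolated lay on chromosome 10 (36783850 to 36784558, 7.56 Mb), chromosome 1 (127932631 to 127933130, 5.96 Mb) and chromosome 9 (41068723 to 41069430, 5.32 Mb). They held 6 to 8 tassel tags and 5 to 12 ear tags, and of them only the one on chromosome 1 bordered a stretch. All 5 had an ear FDR of 100%.

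How often a tassel peak had an ear counterpart changed with position in the same way. Over the interior 17.8% of regions with a tassel replicate 2 peak also held an ear peak, against 22.5% over the whole of the numbered chromosomes. The share was 16.5% (14.5 to 18.8) at 20% to 30% of the length, fell to 8.86% (7.23 to 10.8) at 40% to 50%, and reached 25.6% (23.5 to 27.7) at 70% to 80%. It was higher at 70% to 80% than at 40% to 50% on 10 of 10 chromosomes. On chromosome 3 it was 4.81% at 40% to 50% and 31.5% at 70% to 80%, and on chromosome 8, where the gap was narrowest, 12.7% and 18.8%. Seen from the ear, the share of regions that also held a tassel replicate 2 peak was 10.7% over the interior, 5.44% (4.42 to 6.67) at 40% to 50% and 14.97% (13.7 to 16.3) at 70% to 80%. With only ear peaks at an FDR below 100% the tassel share was lower but ordered alike, at 1.34% in the bin from 40% to 50% and 4.81% in the bin from 70% to 80%. With scores of at least 100 in every list it was 4.22% and 15.98%. The density of peaks moved with the share. Regions with an ear peak rose from 7.69 to 13.6 per Mb between the same bins, regions with a tassel replicate 2 peak from 4.72 to 7.98, and regions with a tassel replicate 1 peak from 3.47 to 4.55. The part of this density in the share was not tested.

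**Figure D3:**
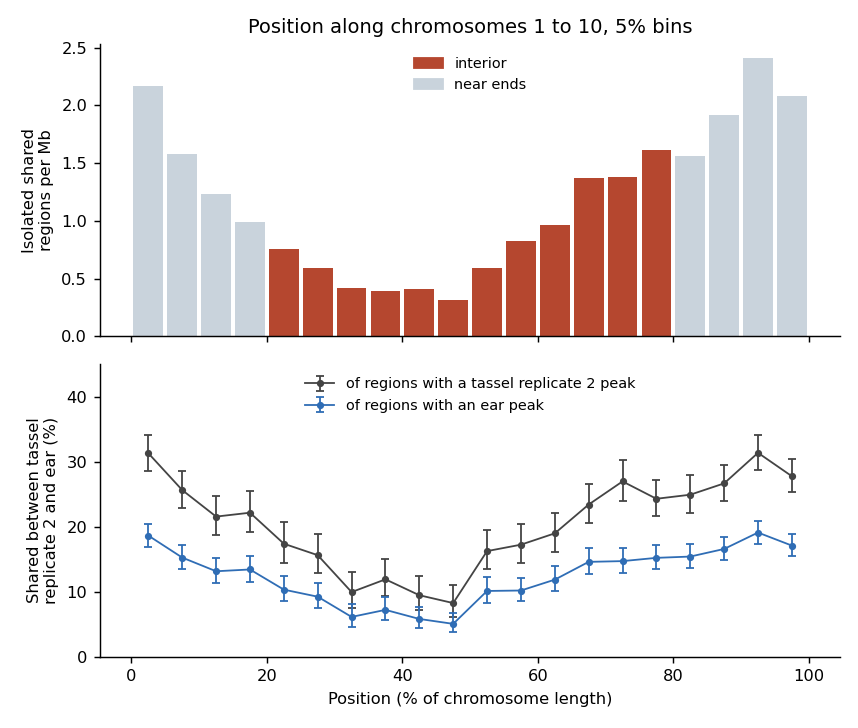
Top, isolated shared regions per Mb in 5% bins pooled over chromosomes 1 to 10, with the interior bins in red and the bins near the ends in grey. Bottom, percentage of regions with a tassel replicate 2 peak (black) or an ear peak (blue) that were shared by both lists, with 95% Wilson intervals; both curves are lowest at 45% to 50% and rise to either side.

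The strength of the isolated regions changed much less along the chromosome than their number. Their median tag count in successive 10% bins from 20% to 80% ran from 9 to 11 in tassel replicate 2 and from 10.5 to 15 in the ear, and both were low from 30% to 50%. A tassel peak wider than 500 bp was present in 44.6% of them at 40% to 50% and in 56.2% at 70% to 80%. Across the chromosomes the density ran from 0.4996 per Mb of interior on chromosome 10 to 1.001 on chromosome 1, and the median from 7.5 tassel tags on chromosome 6 to 12 on chromosome 10.

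The 1434 isolated shared regions near the chromosome ends met the same rule apart from position, so other measures can be set side by side. Near the ends there were 1.74 per Mb, against 0.802 per Mb in the interior, and the ends were denser on 10 of 10 chromosomes. On chromosome 4 the densities were close, at 0.984 and 0.973. The contrast was not a step, with 1.113 isolated regions per Mb at 10% to 20% of the length and 1.497 at 70% to 80%. All peaks were denser near the ends as well. In 10% bins, regions with an ear peak ran from 11.2 to 18.4 per Mb there and from 7.69 to 13.6 in the interior. Regions with a tassel replicate 2 peak reached 11.3 and 7.98 per Mb. The part of this general density in the gap was not tested. The peaks themselves had similar values. The median was 10 tassel tags in both sets, a difference of 0 (interval -2 to 1). Ear tags had a median of 14 in the interior and 15 near the ends, a difference of -1 (interval -3 to 1). The interior median was lower on 6 chromosomes, higher on 3 and equal on 1. Wide tassel peaks made up 51.8% (48.7 to 54.9) in the interior and 54.2% (51.6 to 56.7) near the ends, and an ear FDR below 100% was carried by 18.4% and 17.9%. Summits lay a median of 148 bp apart in the interior and 153 bp near the ends. The 591 shared regions that had a neighbour within 10 kb and no tassel replicate 1 peak held more, with medians of 11 tassel and 17 ear tags and a wide tassel peak in 61.8% (57.8 to 65.6).

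**Figure D4:**
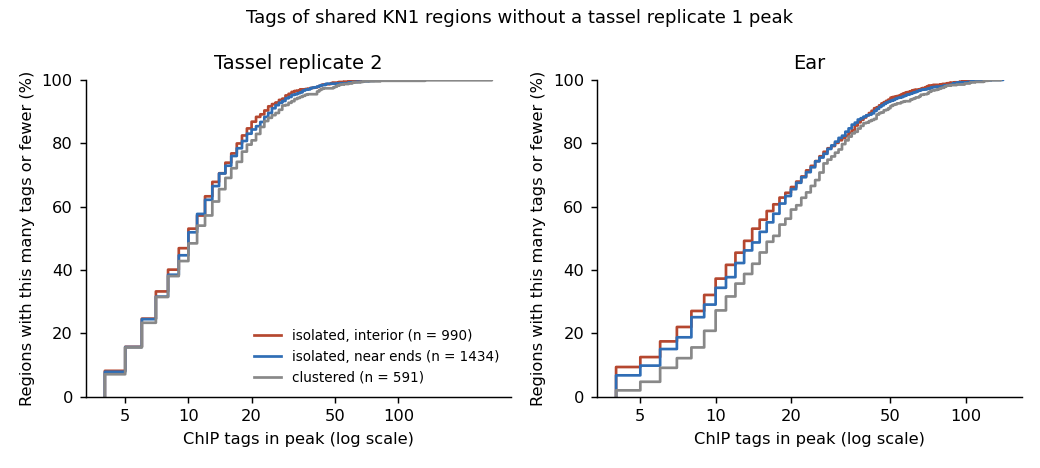
Cumulative percentage of regions by ChIP tags in the peak (log scale), for tassel replicate 2 (left) and the ear (right), in the 990 isolated interior regions (red), the 1434 isolated regions near the ends (blue) and the 591 clustered regions (grey). The red and blue curves nearly coincide, with medians of 10 and 10 tags on the left and 14 and 15 on the right, and the grey curve lies to their right in the ear and, above about the lower quartile of 7 tags, in the tassel.

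Fewer peaks lay around the interior regions than around those near the ends, as they did around regions of a single list. Another peak of the tassel replicate 2 or ear list lay within 10 kb of 508 interior regions (51.3%, 48.2 to 54.4) and of 63.0% (60.5 to 65.5) of those near the ends, a difference of -11.7 percentage points (interval -15.7 to -7.72) with the same direction on 10 of 10 chromosomes. Around regions of tassel replicate 2 alone the same share was 38.7% (37.4 to 39.9) in the interior and 53.1% (51.7 to 54.4) near the ends. Around those of the ear alone it was 42.7% (41.8 to 43.7) and 57.8% (56.8 to 58.7). The gap between interior and ends is therefore not particular to the isolated shared regions. In the interior they were above the single-list regions although the choice had removed every shared neighbour within 10 kb. The sets were not matched for position. Above the midpoint lay 70.1% of the isolated shared regions, against 55.4% of those of tassel replicate 2 alone and 56.6% of those of the ear alone. The part of position in this gap was not tested. Isolation from other shared regions was thus not isolation from peaks. The next shared region was a median of 214 kb away (quartiles 90.7 and 539), against 132 kb near the ends, and over 1 Mb away for 112 interior regions (11.3%, 9.49 to 13.4).

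Tassel replicate 1 had no peak on any of the 990 regions, as the choice required. A tassel replicate 1 peak lay within 10 kb of 122 regions (12.3%, 10.4 to 14.5). The same share was 12.1% (11.3 to 13.0) for interior regions of tassel replicate 2 alone and 11.7% (11.1 to 12.3) for those of the ear alone, with overlapping intervals. Near the ends the share was 18.5% (16.6 to 20.6), a difference of -6.23 percentage points (interval -9.06 to -3.31), lower in the interior on 9 chromosomes and higher on chromosome 4. Regions of a single list near the ends were at 16.4% (15.4 to 17.4) for tassel replicate 2 and 16.3% (15.6 to 17.0) for the ear, also above their interior values. Within 1 kb there were 14 such regions (1.41%, 0.844 to 2.36), against 1.91% (1.59 to 2.30) and 1.97% (1.72 to 2.25) of interior regions of tassel replicate 2 alone and of the ear alone. The closest tassel replicate 1 peak lay 6 bp from the region on chromosome 8 from 118422452 to 118422986, with 7 tags. Over the 14, the tassel replicate 1 peaks held from 3 to 16 tags with a median of 9. Their FDR ran from 9.09% to 100%, and that of the closest peak was 25.2%.

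**Figure D5:**
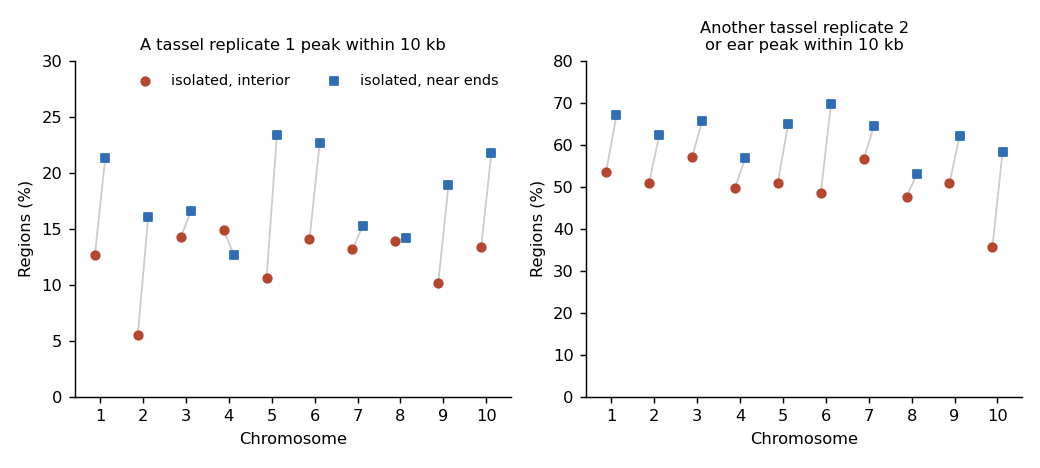
Percentage of isolated shared regions on each chromosome with a tassel replicate 1 peak within 10 kb (left) and with another tassel replicate 2 or ear peak within 10 kb (right), in the interior (red circles) and near the ends (blue squares). The interior is lower on 9 of 10 chromosomes on the left, all but chromosome 4, and on 10 of 10 on the right.

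The limits of the choice cut through a continuous range. The regions just beyond the isolation distance were a pair on chromosome 1 (214979675 to 214980755 and 214990809 to 214991647) 10054 bp apart, with 17 and 13 tassel tags. Just short of it, among interior regions, were those on chromosome 5 (167597662 to 167598515, 9638 bp) and chromosome 4 (188208438 to 188209919, 9507 bp), with 17 and 19 tassel tags. The first regions inside the 20% limit lay on chromosome 5 (43657858 to 43658996) and chromosome 1 (60473841 to 60475067), and the last outside it on chromosome 2 (47365483 to 47366087) and chromosome 9 (31282768 to 31283489). They held 7, 9, 8 and 7 tassel tags and 13, 9, 11 and 4 ear tags. At the 80% limit the last regions inside lay on chromosome 5 (174156147 to 174157053) and chromosome 3 (185423348 to 185423890), and the first outside on chromosome 9 (125340307 to 125340995) and chromosome 5 (174286837 to 174287368). These held 10, 4, 6 and 7 tassel tags and 40, 15, 4 and 12 ear tags.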

How the data were processed

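KN1 ChIP-seq peak lists of 3 ChIP samples were used, and the 3 inputs were not analysed here. Per the submitters' processing notes Bowtie and CASAVA were used, and the peak names are those of MACS. Neither settings nor a build are given in the sources used here. Columns carry no names and were identified from MACS's output order and their ranges. The deposited score is -10 × log10 of the p-value, with no value below 50.01. The deposited tag count is a whole number per peak, the deposited ratio is the fold enrichment over local background, and the deposited percent is the FDR.

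Peaks sharing at least 1 bp were merged with Python 3.11.15, numpy 2.4.6 and pandas 2.3.3. The highest peak end of any list stood in for a chromosome's length. Where a region held 2 peaks of a list, the better scoring one gave its values. Intervals of shares are 95% Wilson intervals (scipy 1.17.1), those of differences in shares combine 2 Wilson intervals (Newcombe), and those of medians are exact binomial order statistics, whose outer limits bound a difference of medians. Merging equalled bedtools 2.31.1 in every region, and 373 of 373 simulated sites were found. Plots used matplotlib 3.10.9.

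Named regions followed a fixed rule: the 10 with the best worst rank, the best on each chromosome, the 5 most isolated, the 5 widest, the 5 most uneven in rank in either direction, 10 with an ear FDR of at most 20% and those nearest each limit. The regions, rules and lists were chosen with earlier results of these data known, and the stretches and position bins after the values were seen.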

Additional observations from a re-analysis of the deposited data

How the results depend on the processing

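Of 107 alternative values, 84 stayed within the 95% interval of the reported one or, for the number of regions, within 1.5 times of it, and 23 moved. No difference whose interval excluded 0 changed sign. Limiting every list to scores of at least 100 left 547 regions, with medians of 13 tassel and 23 ear tags, a wide tassel peak in 62.0%, an ear FDR of 100% in 68.0%, a tassel FDR of at most 5% in 100%, and summits 125 bp apart. The tassel share with an ear peak became 4.22% at 40% to 50% of the length and 16.0% at 70% to 80%. Keeping only ear peaks with an FDR under 100%, an alternative chosen after seeing the data, left 208 regions, with medians of 16.5 and 45 tags, a wide tassel peak in 85.1%, a tassel FDR of at most 5% in 96.2% and summits 100 bp apart; the 2 shares by position became 1.34% and 4.81%. An overlap of 50% of the shorter peak gave a wide tassel peak in 57.9%, summits 118 bp apart and 22.4% at 70% to 80%, and 400 bp windows gave 124.5 bp and 23.2%. By construction the limits on score and FDR keep fewer peaks, and those on overlap and windows keep closer ones. Other isolation distances moved no value. Taking the middle 50% or 70% as the interior gave 746 and 1253 regions, within the limit of 1.5 times, and moved no other value. The shares by position were not rerun with other isolation distances or interior widths. Without tassel replicate 1 there were 1113 regions, 55.1% of them with a wide tassel peak, and its distance to the regions then has no value. Leaving out tassel replicate 2 or the ear leaves no shared regions, so neither was run. No paired analysis was possible because a single tassel list and a single ear list define the regions and no result comes from a test. Library depth is unknown, and the weakest peaks hold 4 tags.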

Other observations

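Close company among the isolated regions was rare but not absent. The next shared region lay between 10 and 20 kb away for 46 of the 990 (4.65%, interval 3.501 to 6.14), against 8.79% (7.43 to 10.4) of the isolated regions near the chromosome ends. A second ear peak within the region was present in 25 of the 990 (2.53%, 1.72 to 3.70), against 4.11% (3.20 to 5.27) near the ends. Any peak of the 3 lists lay within 100 kb of 965 of the 990 (97.5%, 96.3 to 98.3), close to the 96.3% and 96.7% of interior regions of tassel replicate 2 alone and of the ear alone. Near the ends the share was 99.1% of the isolated regions. Regions with 41 or more ear tags numbered 111, and 89.2% of them (82.0 to 93.7) had a tassel peak wider than 500 bp, against 24.3% (18.5 to 31.2) of the 173 with 4 to 6 ear tags.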
